A study of Gorilla gorilla with 12 samples.

Results

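Cultured gorilla fibroblast lines differed widely in the array signal of COL11A1 mRNA. Of the 11 lines harvested under standard conditions, 8 were chosen by their measured COL11A1 intensity alone and placed in opposed groups. A line was called COL11A1-silent where the deposited intensity of the array's only COL11A1 probe set was below 200, and COL11A1-high where it was above 1000. The silent group held 3 lines (male 3, male 4 and female 5, from donors aged 24, 18 and 30 years). The high group held 5 lines (female 2, male 1, male 2, female 6 and male 5, from donors aged 19, 19, 26, 2 and 3 years). The other 3 standard lines (female 1, female 3 and female 4, aged 19, 35 and 26 years) lay between the cuts and entered no group. A 12th array held a second culture of male 2 that was harvested at 50% confluence, and it is described beside the groups without being a member. The labels name no transgene, engineered allele or drug for any line and call every donor normal. Each array held total RNA of 1 culture of 1 line, so the spread within a group is a spread between lines, with variation between cultures and arrays mixed in. The sources used here do not give passage number, biopsy site or hybridisation day. The groups are not an experiment on COL11A1: the lines were sorted by a measurement, and nothing was done to the gene.

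COL11A1 encodes a chain of type XI collagen, a minor fibrillar collagen that is built into the core of cartilage fibrils together with type II collagen and sets how thick those fibrils grow. The related type V chains play the same part in the type I collagen fibrils of skin, tendon and bone, and type V and type XI chains can assemble into mixed molecules. Fibroblasts of normal adult skin are known for little COL11A1, whereas cartilage, developing skeletal tissue and the activated fibroblasts around carcinomas express it strongly. Cultured fibroblasts also keep a memory of where in the body they came from in their HOX and other positional transcription factor genes, and for this reason matrix genes and positional genes were both examined.

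The COL11A1 intensity was 100 in male 3, 121 in female 5 and 131 in male 4. It was 538 in female 4, 606 in female 1 and 683 in female 3. In the high group it was 1676 in male 1, 3076 in male 5, 3082 in female 2, 3491 in female 6 and 6743 in male 2. A value of 100 is the lowest that the deposited data contain and stands for anything at or under it, so COL11A1 in male 3 has only an upper limit. The silent lines had a mean of 117 ± 15.8 (SD, n = 3) and the high lines 3610 ± 1880 (SD, n = 5), a ratio of at least 28 between the means of log2 values. These values chose the groups and are given without a test. The last line inside the silent cut stood at 131 and the first outside it at 538, and the high cut fell between 683 and 1676. No line had a second culture under standard conditions, so how far a line's reading moves between cultures was not measured. The 50% confluence culture of male 2 read 3335, below its standard culture and inside the range of the high lines. In RNA from a whole culture, fewer cells that express the gene and less mRNA per cell cannot be told apart.

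**Figure D1:**
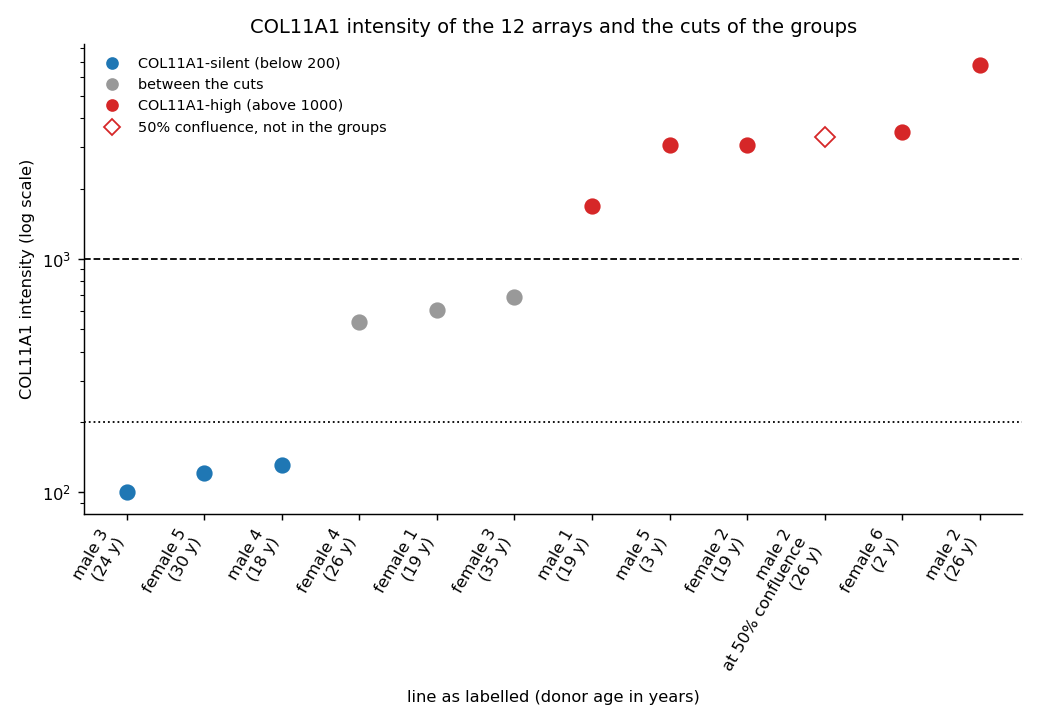
Deposited COL11A1 intensity (vertical axis, log scale) of the 12 arrays in rising order, with the donor's age under each line; the dotted line marks the cut at 200 and the dashed line the cut at 1000. The 3 silent lines sit between 100 and 131, the 3 lines between the cuts at 538 to 683, and the 5 high lines at 1676 to 6743; the open diamond is the 50% confluence culture of male 2 (3335).

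Measures of array quality overlapped between the groups, 1 of them through a single line. From 41.4% to 48.8% of probe sets were at the floor of 100 in the silent lines and 40.1% to 44.8% in the high lines. The GAPDH 3′/5′ signal ratio, a measure of RNA integrity, ranged from 0.821 to 1.34 in the silent and from 1 to 1.30 in the high lines. Its median was higher in the high lines (1.28 against 0.963). The same ratio of ACTB ranged from 0.943 to 1.17 in the silent and from 0.672 to 0.999 in the high lines, and its median was lower in the high lines (0.865 against 0.974). It was 0.672 in male 5, 0.84 in female 6, 0.865 in male 2 and 0.935 in female 2, each below every silent line. Of the high lines male 1 alone, at 0.999, lay inside the silent range. The part of these ratios in the differences below was not tested. Donor age did not divide the groups evenly, since both donors under 10 years (female 6 and male 5) were in the high group and the silent donors were 18 to 30 years old. The array labelled female 3 carried Y-linked transcripts against its label. It lay between the cuts and is in neither group. The fibroblast identity of the lines was plain in both groups: 14 of the 15 fibroblast markers were on the array, and all 14 were bright enough to be tested. The mean log2 intensity over those 14 markers was 12.06 to 12.41 in the silent and 12.16 to 12.43 in the high lines, and their median difference was -0.03. That median was 0.15 on the values as deposited, without normalisation between arrays.

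Across 7540 probe sets bright enough to be tested, 1 passed an adjusted p of 0.05 (0.0133%; limma with Benjamini-Hochberg adjustment), and it was the probe set of NPY. Differences below are the mean log2 intensity of the high lines minus that of the silent lines after quantile normalisation, with the standard error of the fit, and are called log2 differences. An unadjusted p under 0.05 was reached by 495 probe sets, 233 of them higher and 262 lower in the high lines, where 377 would be 5% of those tested. The lowest high line was above the highest silent line in 188 probe sets (2.49%), and the highest high line was below the lowest silent line in 110 (1.46%). Overlap of single probe sets was judged here and below on the deposited intensities, before normalisation, so array brightness enters it. By mean difference, 4092 probe sets were higher in the high lines on the values as deposited and 3778 after quantile normalisation. The part of array brightness in the separations was not tested. Counted with 1 probe set per gene, this was 144 genes (2.63%) on the higher and 77 (1.41%) on the lower side of 5479 genes, and the median difference of all genes was -0.001. Of these 5479 genes, 164 higher and 186 lower ones had an unadjusted p under 0.05 by limma. The list counts of unadjusted p below are to be read against these. COL11A1 itself stands outside all these counts. Median scaling in place of quantile normalisation moved the median difference of all probe sets from 0.001 to -0.08, and a list median is to be read against that shift.

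NPY was lower in the high lines. It encodes neuropeptide Y, a secreted peptide best known from sympathetic nerves and the hypothalamus. Its intensity was 981 in male 3, 419 in male 4 and 648 in female 5. In the high group it was 190 in male 2 and at the floor of 100 in the other 4 lines. The groups did not overlap, and the lines between the cuts read 273 in female 1, 116 in the array labelled female 3 and 189 in female 4. The silent mean was 683 ± 283 (SD, n = 3). By means of log2 values the silent lines were at least 5.66-fold above the high lines, and the log2 difference was -2.51 ± 0.31 (adjusted p = 0.0493). The call sat on the threshold: it was kept in 6 of the 23 alternatives, with adjusted p from 0.0112 to 0.557, and it was lost when any group line other than male 4 was left out. Donor age as a covariate gave a log2 difference of -2.26 with an adjusted p of 0.557.

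The other collagen chains did not separate with COL11A1. COL2A1, the main chain of the cartilage fibril, read 388 to 486 in the silent and 329 to 561 in the high lines on its brighter probe set (log2 difference -0.09 ± 0.23), and its second probe set was at the floor of 100 on every array of the groups. COL11A2, the partner chain of COL11A1, read 273 to 452 against 209 to 496, with a log2 difference of 0.05 ± 0.30 that turned to -0.03 with median scaling. A second COL11A2 probe set gave -0.47. COL5A2, a type V chain, read 1464 to 2967 in the silent and 2047 to 3500 in the high lines (0.29 ± 0.33). The abundant skin collagens COL1A1 (0.08 ± 0.29), COL1A2 (-0.03 ± 0.19) and COL3A1 (-0.15 ± 0.35) overlapped in the same way, and COL1A2 turned to 0.17 with median scaling and 0.28 on the values as deposited. SOX9, the transcription factor that drives COL2A1 and COL11A2 in cartilage, was not bright enough to be tested and read 100 to 144 on the standard arrays. COL7A1, the anchoring fibril collagen, had the largest absolute difference of the list of fibrillar and fibril-associated collagens at 0.75 ± 0.35 (adjusted p = 0.750). In that list of 10 tested genes 5 were higher and 5 lower, 0 passed the test by limma and 0 had an unadjusted p under 0.05, 0 separated the groups, and the median was 0.03.

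Among cartilage matrix genes, ACAN had a large difference, and it did not follow the groups without exception. ACAN encodes aggrecan, the large proteoglycan that holds water in cartilage. Its intensity was 100 in male 3 and female 5 and 228 in male 4. The high lines read 1608 in male 5, 1424 in male 2, 920 in female 2 and 870 in female 6, but 100 in male 1. The arrays outside the groups read 145 in female 1, 100 in the array labelled female 3, 1787 in female 4 and 331 in the 50% confluence culture. High COL11A1 thus went with high ACAN in 4 of 5 lines, while female 4 had the highest ACAN with a COL11A1 intensity between the cuts. The log2 difference was 2.49 ± 0.79 (adjusted p = 0.631), and the other ACAN probe sets gave 2.15 and 2.02 with male 1 at the floor in each. The cartilage matrix list had 9 testable members, of which 4 were higher and 5 lower, 0 separated the groups, 0 passed the test and 1, ACAN, had an unadjusted p under 0.05. Its median was -0.03. A further 6 of its 22 genes on the array were at the floor in all 11 standard lines.

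Large proteoglycans and hyaluronan enzymes went in several directions. VCAN, versican, a hyaluronan-binding proteoglycan of loose connective tissue, read 698, 1009 and 1327 in male 3, male 4 and female 5. The high lines read 1194 in male 1, 1694 in female 6, 2927 in female 2, 3786 in male 5 and 3819 in male 2, so male 1 lay below female 5. The log2 difference of VCAN was 1.34 ± 0.41 (adjusted p = 0.631). Its other probe sets gave smaller differences of 0.69 and 0.54, and the last of these separated the groups, with 1155 to 1218 against 1411 to 1978. HAS2, a hyaluronan synthase, stood on the other side at -0.94 ± 0.28, and so did the hyaluronan receptor CD44 at -0.68 ± 0.29 (adjusted p = 0.631 and 0.716). Of 15 proteoglycan and hyaluronan genes, 6 were higher and 9 lower, 0 separated the groups on the probe set used, 0 passed the test, 2 in each direction had an unadjusted p under 0.05, and the median was -0.03.

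Enzymes that modify collagen included a pair that separated the groups. PLOD2, a lysyl hydroxylase whose product marks collagen telopeptides for stable crosslinks, read 324, 591 and 658 in male 3, male 4 and female 5. In high lines PLOD2 was 711 in male 1, 853 in female 2, 997 in male 2, 1220 in male 5 and 1463 in female 6. All 5 were above all 3 silent lines (524 ± 177 SD, n = 3, against 1050 ± 298 SD, n = 5), although the distance from 658 to 711 was small. The log2 difference was 1.03 ± 0.30 (adjusted p = 0.631). PLOD1, the lysyl hydroxylase of the triple helix, read 1906 to 2144 in the silent and 2340 to 6061 in the high lines (0.77 ± 0.27, adjusted p = 0.661). Lines between the cuts lay above the silent lines for both genes, at 821 to 1332 for PLOD2 and 2772 to 5596 for PLOD1. TGM2, a transglutaminase that crosslinks matrix proteins, had the largest absolute difference of the list and the opposite sign (-1.65 ± 0.52), with the groups overlapping. In the list of collagen processing and crosslinking, 2 of 17 tested genes separated the groups on the higher side against the 2.63% of all genes. There 10 were higher and 7 lower, 0 passed the test, and 2 higher and 1 lower had an unadjusted p under 0.05. The median of 0.09 turned to -0.01 with median scaling.

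Basement membrane genes held a matched pair of differences in the type IV collagen chains. COL4A1 and COL4A2, which lie head to head and whose products assemble into the same molecule, gave log2 differences of 1.70 ± 0.65 and 1.64 ± 0.48 (adjusted p = 0.682 and 0.631). COL4A1 read 920 in male 3, 376 in male 4 and 141 in female 5, and among the high lines 402 in male 2, 1099 in female 2, 1370 in male 1, 1434 in male 5 and 2514 in female 6. Of the silent lines, male 3 alone lay above a high line, male 2. LAMB2, a laminin beta chain, separated the groups with 879 to 1158 in the silent and 1205 to 1584 in the high lines (0.45 ± 0.20, adjusted p = 0.738). Of 13 tested basement membrane genes 7 were higher and 6 lower, and 1 separated the groups on the higher side, against 2.63% of all genes. Among the 13, 0 passed the test and 4 higher ones had an unadjusted p under 0.05, against 164 higher ones of all 5479 genes. The list median was 0.08, or -0.04 with median scaling.

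Receptors for collagen and laminin gave a similar picture. ITGA7, a laminin-binding integrin chain known from muscle, read 343, 457 and 515 in male 3, male 4 and female 5. In the high lines it was 914 in female 2, 1069 in male 2, 1460 in male 1, 2028 in female 6 and 2158 in male 5, and no line overlapped. The means were 438 ± 87.5 (SD, n = 3) and 1530 ± 557 (SD, n = 5), a 3.34-fold ratio by means of log2 values, and the log2 difference was 1.76 ± 0.32 (adjusted p = 0.343). The lines between the cuts read 634 to 1012 for ITGA7, and the 50% confluence culture of male 2 read 911. ITGA3, another laminin receptor chain, separated the groups on 1 probe set (290 to 688 against 714 to 1243, log2 difference 1.05 ± 0.29) and overlapped on the other, where the difference was 1.59. At 50% confluence male 2 read 471 on the first ITGA3 probe set, inside the silent range, against 1090 in its standard culture. On the other it read 175 against 359. Of the collagen receptors, ITGA1 had the largest difference (1.08 ± 0.39) and overlapped: it read 100, 100 and 128 in the silent lines and 104 to 386 in the high lines. That list had 5 tested members, 4 of them higher, 0 without overlap, 0 past the test and 1 with an unadjusted p under 0.05. Its median was 0.12, and -0.01 with median scaling.

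Elastic fibre and microfibril genes overlapped throughout. MFAP4, a fibrillin-associated glycoprotein, had the largest absolute difference (-1.77 ± 1.05, adjusted p = 0.792), which came from 2 of 3 silent lines. It read 6674 in male 3 and 4295 in male 4 but 146 in female 5, and 202 to 869 in the high lines. MFAP5, another microfibril protein, stood at 1.62 ± 0.46 and MFAP2 at 0.80 ± 0.35. Of 18 tested genes 12 were higher and 6 lower, 0 separated the groups, 0 passed the test, 2 had an unadjusted p under 0.05, and the median was 0.19. In the matricellular list THBS3, a thrombospondin, separated the groups with 206 to 372 in the silent and 448 to 617 in the high lines (0.90 ± 0.24, adjusted p = 0.631). The thrombospondin THBS2 and tenascin C, TNC, had the same size of difference with the opposite sign (-0.93 ± 0.67 and -0.93 ± 0.41). Of 13 tested matricellular genes 4 were higher and 9 lower, and 1 separated the groups on the higher side, against 2.63% of all genes. Among the 13, 0 passed the test and 1 in each direction had an unadjusted p under 0.05, with a median of -0.08.

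Genes that the cancer literature reports beside COL11A1 in tumour stroma gave no common direction here. Of 20 tested genes 10 were higher and 10 lower, 0 separated the groups, 0 passed the test, 2 higher and 1 lower had an unadjusted p under 0.05, and the median was 0.01, or -0.05 with median scaling. SULF1, a heparan sulphate endosulphatase, stood beside VCAN among the positive differences (1.33 ± 0.43), reading 102 to 177 in the silent lines and 147 to 716 in the high lines. Against them stood THBS2 and ADAM12, a membrane metalloprotease (-0.73 ± 0.31). The periostin gene POSTN read 3513 to 5964 in the silent and 1753 to 5372 in the high lines (-0.29 ± 0.40).

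**Figure D2:**
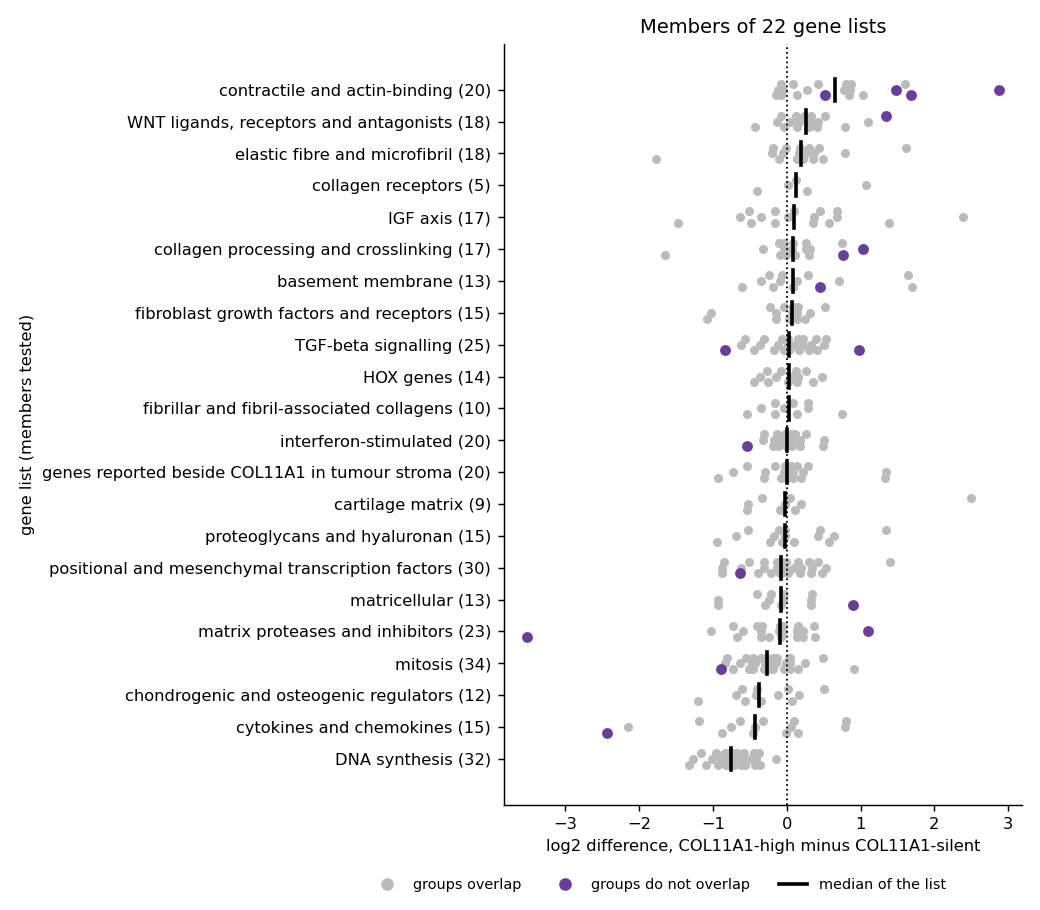
Log2 difference between COL11A1-high and COL11A1-silent lines (horizontal axis) of the tested members of 22 gene lists, 1 point per gene, with the number tested after each list's name and the list's median as a black bar. Purple points are genes whose deposited intensities, before normalisation, do not overlap between the groups. The contractile list has 4 of them on the higher side, and all 32 DNA synthesis genes lie left of 0.

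HOX genes gave small differences, and some other positional factors gave larger ones. Only 18 of 39 HOX genes were on the array with a probe set of their own, and 14 were tested. Their log2 differences ran from -0.44 for HOXC6 to 0.48 ± 0.28 for HOXC4 (adjusted p = 0.790), 8 were higher and 6 lower, 0 separated the groups, 0 passed the test and 0 reached an unadjusted p under 0.05. HOXC4 read 366, 428 and 825 in male 3, male 4 and female 5, and 614 to 833 in the high lines, so that female 5 lay within the high range. The HOX median was 0.03 and turned to -0.04 with median scaling. Several HOX genes read near the floor of 100, which limits how large a difference can appear. HOXB3, for example, read 100 to 160 in the silent and 100 to 106 in the high lines. Among the other positional and mesenchymal transcription factors, PAX9, a paired-box factor of pharyngeal and skeletal patterning, separated the groups. It read 187 in male 3, 256 in male 4 and 212 in female 5, and 101 to 186 in the high lines, a distance of 1 unit between male 1 at 186 and male 3 at 187 (-0.63 ± 0.24, adjusted p = 0.682). EMX2, a homeobox factor, was at the floor of 100 in all 5 high lines and read 100, 240 and 260 in male 3, male 4 and female 5. IRX5, another homeobox factor, gave -0.88 ± 0.27 with overlap. TFAP2A, a factor of neural crest and skin, had the largest absolute difference of that list (1.39 ± 0.65, adjusted p = 0.750) and also overlapped, with 168 to 327 in the silent and 184 to 1846 in the high lines. Of 30 tested factors 12 were higher and 18 lower, 0 separated the groups on the higher and 1 on the lower side against the 1.41% of all genes, 0 passed the test and 3 lower ones had an unadjusted p under 0.05. The median was -0.07.

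The contractile list held the largest number of members without overlap, 4. ACTA2, smooth muscle alpha-actin and the usual marker of myofibroblasts, read 885 in male 3, 2057 in male 4 and 1524 in female 5. Among the high lines it was 6073 in male 1, 7432 in female 2, 8966 in male 2, 17158 in female 6 and 17653 in male 5. Every high line was above every silent line, and the 2 highest were the 2 lines from donors under 10 years. The means were 1490 ± 587 (SD, n = 3) and 11500 ± 5530 (SD, n = 5), a 7.41-fold ratio by means of log2 values, with a log2 difference of 2.87 ± 0.42 and an adjusted p of 0.135. With median scaling ACTA2 passed the test (2.78, adjusted p = 0.0112), and with donor age as a covariate the difference was 2.33. Of the lines between the cuts, the array labelled female 3 read 1729 and lay inside the silent range, female 1 read 4403, and female 4 read 15216. The 50% confluence culture of male 2 read 5574 against 8966 in its standard culture.

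Other genes of the actin cytoskeleton lay on the same side. PALLD, palladin, an actin crosslinker, read 1283, 926 and 1925 in male 3, male 4 and female 5, and 2554 in male 1, 3108 in male 2, 3721 in female 2, 5749 in female 6 and 6606 in male 5. LMOD1, leiomodin, which nucleates actin filaments in smooth muscle, read 169, 278 and 382 in male 3, male 4 and female 5, and 490 in male 1, 633 in female 2, 637 in male 5, 930 in male 2 and 1192 in female 6. Neither gene overlapped, with log2 differences of 1.68 ± 0.37 and 1.48 ± 0.33 (adjusted p = 0.486 for each). TAGLN, transgelin, separated the groups with a smaller difference, at 11585 to 12957 in the silent and 17239 to 26479 in the high lines (0.52 ± 0.20, adjusted p = 0.682). KCNMB1, the smooth muscle subunit of a potassium channel and no member of the list, read 161 to 294 in the silent lines, 390 to 565 in the 3 high lines from adults and 1072 and 1241 in male 5 and female 6 (1.63 ± 0.41). The difference of KCNMB1 was 0.98 with donor age as a covariate. At 50% confluence male 2 read 269 for LMOD1 and 228 for KCNMB1, inside the silent ranges, against 930 and 565 in its standard culture. Its TAGLN reading there was 11497, below all silent lines, against 26479, whereas PALLD at 3915 stayed inside the high range. CNN1, calponin, overlapped, with 100 to 182 against 125 to 1156 (1.61 ± 0.57). Further members with overlap ranged widely, from TPM2 at 1.03, CALD1 at 0.87, MYL9 at 0.84 and CSRP1 at 0.80 through VCL at 0.28 to CNN3 at -0.08, TLN1 at -0.12 and TPM4 at -0.15.

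Taken over the contractile and actin-binding list, 15 of 20 tested genes were higher and 5 lower. There 4 separated the groups on the higher side (against 2.63% of all genes) and 0 on the lower. In that list 0 passed the test, and 7 higher ones had an unadjusted p under 0.05, against 164 higher ones of all 5479 genes. The list median was 0.65. It was 0.33 among donors over 10 years and 0.38 with donor age as a covariate, so leaving out both young donors cut it by more than 1.5 times. It was 0.43 without male 3 and 0.41 with the 50% confluence culture in place of the standard culture of male 2. The mean log2 intensity over the list was 10.16 to 10.72 in the silent and 10.48 to 11.72 in the high lines, and male 1, at 10.48, was the high line inside the silent range. The 50% confluence culture of male 2 stood at 10.67 against 11.19 for its standard culture. Several of these genes are also markers of pericytes and smooth muscle cells. Of the 6 tested genes of that list 5 were higher, and 2 were without overlap on the higher side, against 2.63% of all genes. The median of that list was 1.22, or 0.69 with donor age as a covariate. The mean log2 intensity over that list was 7.95 to 8.63 in the silent and 9.14 to 10.06 in the high lines, without overlap. Its members ACTA2, LMOD1, CNN1 and MYH11 stand in both lists. MYH11, the smooth muscle myosin heavy chain, stood at -0.07, but it read 100 to 144 in the silent and 100 to 123 in the high lines. These values are at or near the floor of 100, so a difference in MYH11 could hardly show. The members in this list alone, CSPG4 and NOTCH3, stood at 0.21 and 0.95. The smooth muscle and pericyte list had 8 genes on the array, of which 1 was at the floor in all 11 standard lines. Whether such cells had a part in the result was not tested.

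**Figure D3:**
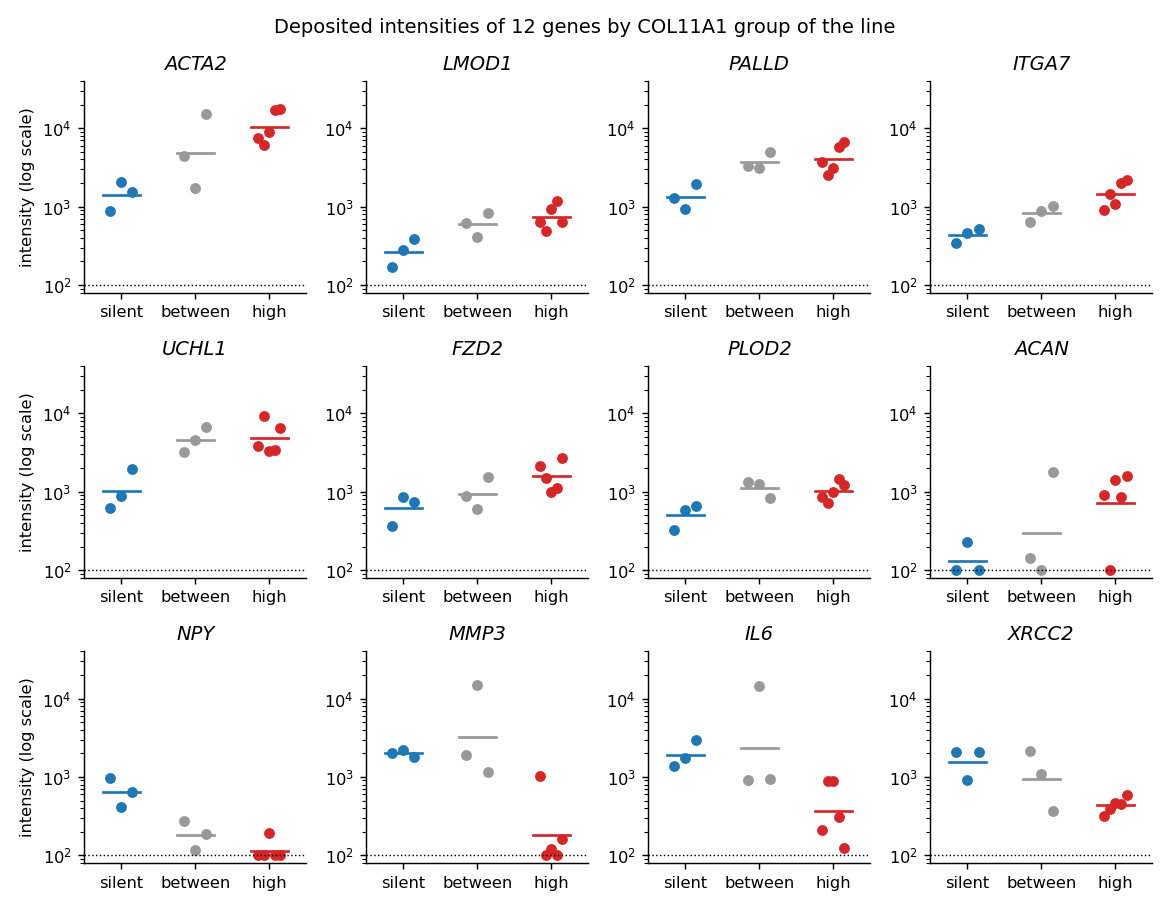
Deposited intensity (vertical axes, log scale) of 12 named genes in the 3 silent, 3 between and 5 high lines, 1 point per line; horizontal bars are means of log2 values and the dotted line is the floor of 100. ACTA2, LMOD1, PALLD, ITGA7, UCHL1, FZD2 and PLOD2 have no overlap on the higher side and NPY, MMP3, IL6 and XRCC2 none on the lower side, whereas ACAN has 1 high line, male 1, at the floor.

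Among proteases, MMP3 had the largest absolute difference of all named genes. MMP3 encodes stromelysin 1, a secreted protease with a broad range of matrix substrates that interleukin 1 and related signals induce in fibroblasts. It read 2010 in male 3, 2215 in male 4 and 1807 in female 5. The high lines read 100 in male 1 and female 6, 121 in male 2 and 163 in male 5, but 1024 in female 2. The groups did not overlap, and female 2 was far above the other 4 high lines. The silent mean was 2010 ± 204 (SD, n = 3) and the high mean 302 ± 405 (SD, n = 5). By means of log2 values the silent lines were at least 11-fold above the high lines, 2 of which were at the floor, with a log2 difference of -3.51 ± 0.68 (adjusted p = 0.424). Without female 2 the difference was -4.15 and passed the test (adjusted p = 0.000303). With a single cut at 500, which puts all 3 between lines on the high side, it was -1.94 (adjusted p = 0.713). The lines between the cuts read 1918 in female 1, 1140 in female 4 and 15064 in the array labelled female 3.

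PLAU, urokinase, a serine protease that activates plasminogen, lay on the opposite side: 636, 829 and 829 in the silent lines, and 948 in male 2, 1185 in male 1, 1513 in female 6, 2455 in male 5 and 2528 in female 2. Its log2 difference was 1.10 ± 0.35 (adjusted p = 0.631) with no overlap. At 50% confluence male 2 read 755 for PLAU, inside the silent range. The interstitial collagenase MMP1 overlapped widely, at 343 to 458 in the silent and 100 to 720 in the high lines (-1.03 ± 0.62). Of 23 tested matrix proteases and inhibitors, 8 were higher and 15 lower. In each direction 1 separated the groups, against 2.63% of all genes on the higher and 1.41% on the lower side. Among the 23, 0 passed the test, 1 higher and 2 lower had an unadjusted p under 0.05, and the median was -0.10.

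IL6, an inflammatory cytokine that fibroblasts secrete, read 1369 in male 3, 1752 in male 4 and 2983 in female 5. In the high group it was 125 in male 5, 211 in female 2, 309 in female 6, 880 in male 1 and 884 in male 2. All high lines were below all silent lines, with means of 2030 ± 843 (SD, n = 3) and 482 ± 371 (SD, n = 5), a 5.30-fold ratio by means of log2 values, and a log2 difference of -2.43 ± 0.64 (adjusted p = 0.631). The line between the cuts labelled female 3 read 14499, and female 1 and female 4 read 908 and 933. With donor age as a covariate the IL6 difference was -1.58. CXCL8, a neutrophil chemokine, was at the floor of 100 in all 5 high lines and in female 5, and read 2133 in male 3 and 427 in male 4 (-2.15 ± 0.72, adjusted p = 0.652). The cytokine and chemokine list had 15 tested members, 5 higher and 10 lower. Of these 1 separated the groups, on the lower side, against 1.41% of all genes. In the list 0 passed the test and 3 lower ones had an unadjusted p under 0.05. Its median of -0.42 was 0.06 over the members left by a stricter filter on dim probe sets and 0.00 without male 3. The list mean was 7.89 to 8.79 in the silent and 7.50 to 7.99 in the high lines, so the groups overlapped.

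Signalling genes had single members that separated the groups. FZD2, a frizzled receptor for WNT ligands, read 364, 868 and 740 in male 3, male 4 and female 5, and 1000 in male 2, 1111 in female 6, 1487 in male 1, 2151 in female 2 and 2700 in male 5. Its log2 difference was 1.35 ± 0.38 (adjusted p = 0.631), and a second FZD2 probe set also separated the groups with 1.29. At 50% confluence male 2 read 728 on the first FZD2 probe set, inside the silent range. On the second it read 737, inside the high range of 607 to 1945. FZD7 stood at 1.10 ± 0.35 and the ligand WNT5A at 0.79 ± 0.57, both with overlap. Of 18 tested genes of the WNT list 14 were higher and 4 lower, and 1 separated the groups on the higher side, against 2.63% of all genes. Among the 18, 0 passed the test and 2 had an unadjusted p under 0.05. The WNT median was 0.26, and 0.06 with donor age as a covariate. In the TGF-beta list ACVRL1, a type I receptor, was apart with 155 to 265 in the silent and 336 to 442 in the high lines (0.98 ± 0.24, adjusted p = 0.591), and FST, follistatin, an activin antagonist, was apart in the other direction with 6752 to 8737 against 2716 to 6303 (-0.83 ± 0.28, adjusted p = 0.654). The ACVRL1 value is that of 1 probe set of 3, since the other 2 were too dim to be tested. At 50% confluence male 2 read 173 for ACVRL1 and 7275 for FST, each inside the silent range, against 442 and 4755 in its standard culture. Of 25 TGF-beta genes 15 were higher and 10 lower. In each direction 1 separated the groups, against 2.63% of all genes on the higher and 1.41% on the lower side. Among the 25, 0 passed the test, 1 higher and 2 lower had an unadjusted p under 0.05, and the median was 0.04, or -0.03 with median scaling.

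In the IGF list, IGFBP2, a secreted binding protein of insulin-like growth factors, had the largest difference (2.38 ± 0.92, adjusted p = 0.682) and overlapped. It read 331, 529 and 3351 in female 5, male 3 and male 4, and 686 in male 1 against 4774 to 8899 in the other 4 high lines. At 50% confluence male 2 read 550 for IGFBP2, against 6346 in its standard culture. IGFBP5 read 558 to 8433 in the silent and 312 to 4410 in the high lines (-1.47 ± 1.02). Of 17 tested IGF genes 10 were higher and 7 lower, 0 separated the groups, 0 passed the test, 2 had an unadjusted p under 0.05 and the median was 0.10. In the list of fibroblast growth factors and receptors, SPRY2, an inhibitor of receptor tyrosine kinase signalling, had the largest absolute difference (-1.08 ± 0.49). There 9 of 15 were higher and 6 lower, 0 separated the groups, 0 passed the test, 1 lower one had an unadjusted p under 0.05, and the median was 0.07 (-0.05 with median scaling). Regulators of cartilage and bone formation other than SOX9 overlapped throughout. ID1, a BMP target that blocks differentiation factors, read 7737 to 14062 in the silent and 2897 to 9533 in the high lines (-1.20 ± 0.40, adjusted p = 0.652). At 50% confluence male 2 read 12362 for ID1, inside the silent range, against 2897 in its standard culture. RUNX2, the main bone transcription factor, was at the floor in 4 of 5 high lines and read 159 in male 5, against 114 to 253 in the silent lines (-0.61 ± 0.27). Of 12 tested regulators 4 were higher and 8 lower, 0 separated the groups, 0 passed the test, 3 lower ones had an unadjusted p under 0.05, and the median was -0.37. That median shrank to -0.10 with a floor of 200 and to -0.17 without female 5. Of 20 interferon-stimulated genes, 10 were higher and 10 lower, 0 passed the test and 0 had an unadjusted p under 0.05. Their median difference was 0.01, which median scaling turned to -0.07. IFITM1 alone separated the groups there, on the lower side (against 1.41% of all genes), with 805 to 864 against 396 to 782 (-0.54 ± 0.27).

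Every tested gene of DNA synthesis was lower in the high lines by its mean, and none of them separated the groups. All 32 had a negative log2 difference on each of the 3 scalings, between -1.32 for CDC45 and -0.15 for TK1, with a median of -0.75. Without male 3 that median was -0.41, and over all alternatives it ran from -0.97 to -0.41. CDC45, a subunit of the replicative helicase, read 826 in male 3, 553 in male 4 and 270 in female 5, and 100 in female 6, 161 in male 2, 202 in male 5, 261 in female 2 and 406 in male 1 (-1.32 ± 0.48, adjusted p = 0.682). The mean log2 intensity over the list was 9.83 in male 3, 8.88 in male 4 and 8.65 in female 5. It was 9.05 in male 1, 8.59 in female 2, 8.38 in male 5, 7.97 in male 2 and 7.89 in female 6. Male 1 lay above 2 silent lines, and the 3 lines between the cuts, at 7.76 to 7.89, stood beside the lowest high lines, female 6 and male 2. COL11A1 and DNA synthesis therefore did not run in 1 order over the 11 lines. By limma 0 of the 32 passed the test and 7 had an unadjusted p under 0.05, against 186 lower ones of all 5479 genes.

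**Figure D4:**
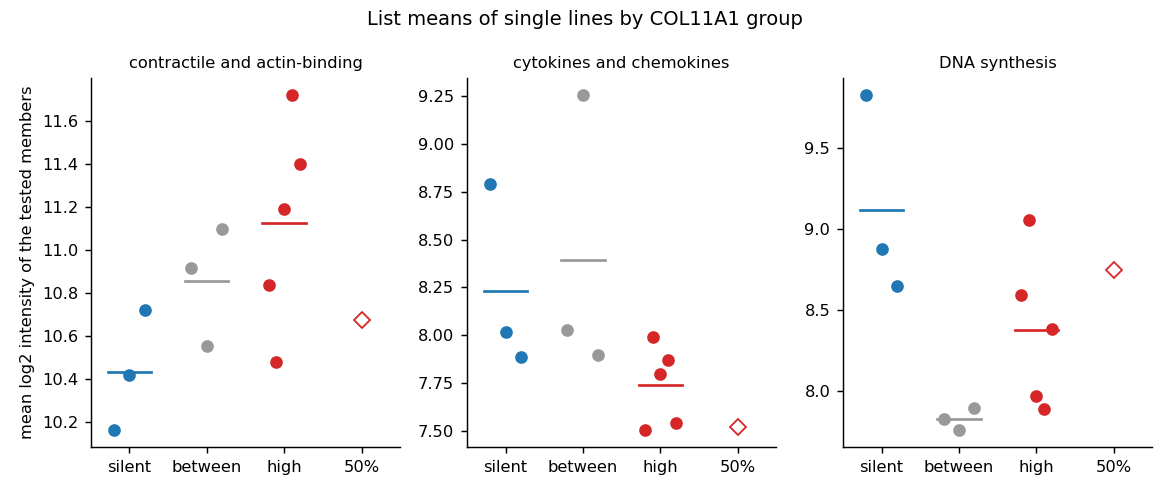
Mean log2 intensity (vertical axes, normalised) over the tested members of 3 gene lists in each line; points are lines, bars are group means and the open diamond is the 50% confluence culture of male 2. The groups overlap in all 3 panels: contractile 10.16 to 10.72 in silent and 10.48 to 11.72 in high lines, cytokines 7.89 to 8.79 and 7.50 to 7.99, DNA synthesis 8.65 to 9.83 and 7.89 to 9.05.

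Mitosis genes had a median of -0.27, or -0.06 without male 2, and 26 of 34 were lower. MAD2L1, a spindle checkpoint protein, separated the groups with 248 to 300 in the silent and 100 to 224 in the high lines (-0.89 ± 0.28, adjusted p = 0.631), and overlapped on its other tested probe set (-0.52). PLK1, a mitotic kinase, had the opposite sign (0.91 ± 0.35). In that list 1 gene separated the groups, on the lower side, against 1.41% of all genes. Among the 34, 0 passed the test and 1 gene in each direction had an unadjusted p under 0.05. The mitosis mean of male 1, 9.48, was the highest of the 11 lines, and the median difference was 0.02 with the 50% confluence culture in place of the standard culture of male 2. XRCC2, a recombination repair gene that belongs to none of the lists, read 2064 in male 3, 907 in male 4 and 2067 in female 5, and 320 in female 2, 384 in male 1, 456 in female 6, 471 in male 2 and 581 in male 5. No line of the 2 groups overlapped, the ratio by means of log2 values was 3.62-fold, and the log2 difference was -1.87 ± 0.31 (adjusted p = 0.281). Arrays outside the groups did not keep to this split. Female 1 read 2137, above every silent line, the array labelled female 3 read 1082, and female 4 read 366. At 50% confluence male 2 read 1094, above silent male 4. XRCC2 passed the test without male 4 (-2.26). BARD1, the partner of BRCA1 and also outside the lists, read 520 to 710 in the silent and 211 to 368 in the high lines (-1.11 ± 0.28, adjusted p = 0.591).

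Several genes without overlap belonged to none of the lists. UCHL1, a deubiquitinase abundant in neurons, read 620, 882 and 1926 in male 3, male 4 and female 5. The high lines read 3278 in male 2, 3374 in female 6, 3830 in female 2, 6551 in male 5 and 9323 in male 1, and the lines between the cuts read 3176 to 6632. The means were 1140 ± 691 (SD, n = 3) and 5270 ± 2630 (SD, n = 5), a 4.73-fold ratio by means of log2 values, with a log2 difference of 2.24 ± 0.41 (adjusted p = 0.343). Also on the higher side were ECH1, a fatty acid oxidation enzyme (1.28 ± 0.35), FIG4, a phosphoinositide phosphatase (1.14 ± 0.26), and GRM2, a glutamate receptor (1.12 ± 0.42). On the lower side were the ESCRT subunit CHMP7 (-1.36 ± 0.53), the membrane protein EMP1 (-1.18 ± 0.29), the glycolytic enzyme PFKP (-1.02 ± 0.28), the actin-binding protein TAGLN2 (-0.998 ± 0.295), the transcriptional corepressor NAB2 (-0.99 ± 0.37) and the zinc finger factor ZBTB20 (-0.91 ± 0.27). Their adjusted p ran from 0.486 for FIG4 to 0.682. EMP1 and ZBTB20 each had a second probe set on which the groups overlapped, with differences of -0.78 and -0.80. The splicing factor SF3A2 separated the groups on 1 probe set (-1.27 ± 0.34) and not on its other probe sets, which gave -0.08 and -0.81. On the separating probe sets, male 2 at 50% confluence lay inside the silent range for PFKP (2315) and SF3A2 (1666). It lay inside the high range for UCHL1, ECH1, FIG4, CHMP7, EMP1 and ZBTB20, and between the ranges for GRM2, NAB2 and TAGLN2.

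Markers of other cell types gave few separations. Of 18 epithelial markers 9 were tested, 8 were higher and 1 lower, and the median was 0.36 (0.04 with a floor of 200 and 0.10 with a stricter filter). Their mean log2 intensity was 7.59 to 8.08 in the silent and 7.97 to 8.42 in the high lines. Of the 9 epithelial markers tested 1 separated the groups, on the higher side, against 2.63% of all genes. It was the placental cadherin gene CDH3, with 100 to 123 in the silent and 207 to 883 in the high lines (1.76 ± 0.39, adjusted p = 0.486). KRT8, a simple epithelial keratin, read about the same in both groups (means 1140 and 1190), with a difference of 0.05 that turned to -0.07 with median scaling, and 4 epithelial markers were at the floor in all 11 standard lines. The 6 chondrocyte markers tested had 3 higher and 3 lower and a median of 0.01 (-0.08 with median scaling), and the 2 endothelial markers a median of 0.37. FLT1 of that pair stood at 0.29 on the probe set used. A dimmer FLT1 probe set separated the groups in the other direction, with 162 to 197 in the silent and 100 to 101 in the high lines (-0.81 ± 0.18, adjusted p = 0.486). There 4 of the high lines were at the floor, so the separation and its small standard error lean on clipped values. The lines between the cuts read 100 to 130, so it was bright enough to be tested mainly through the silent lines. The 5 leukocyte markers had a median of 0.02 (-0.10 with median scaling), with CD68 at 0.02 and -0.10 with median scaling. The 7 melanocyte and Schwann cell markers stood at a median of 0.05 with ERBB3 at 0.10, and the 4 adipocyte markers at 0.10 with CEBPA at 0.27. Skeletal muscle markers had a median of 0.51 over 5 genes, of which ACTC1, the cardiac alpha-actin, read 556 to 5272 in the silent and 546 to 18139 in the high lines (1.33 ± 1.07). That median was 0.08 among donors over 10 years. The 4 mesothelial markers had a median of -0.25, which ran from -0.46 to 0.09 over the alternatives. In none of these marker lists did a gene pass the test, and 1 epithelial, 1 chondrocyte, 3 pericyte and smooth muscle and 1 mesothelial marker had an unadjusted p under 0.05. Over all 5479 genes the counts were 164 higher and 186 lower.

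The lines of the high group were not alike among themselves. Male 1 had the lowest COL11A1 of the 5 and was also the line with ACAN at the floor, the lowest IGFBP2 and ACTA2, the lowest contractile mean and the highest DNA synthesis and mitosis means of that group. Female 6 and male 5, the lines from donors of 2 and 3 years, had the highest ACTA2, ITGA7, PALLD and KCNMB1 intensities. Male 2, with the highest COL11A1, had the highest IL6 of the group at 884, close to male 1 at 880. In the silent group male 3 stood lowest for COL11A1, ACTA2, UCHL1, ITGA7, LMOD1, FZD2 and PLOD2, and highest for NPY and the DNA synthesis mean. The ranks of single genes are on deposited intensities, before normalisation. Of the 11 standard arrays, that of male 3 had the lowest median intensity (106) and the most probe sets at the floor (48.8%). The part of this in the low ranks was not tested. Female 5 stood apart from the other silent lines for MFAP4, with 146 against 4295 and 6674.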

How the data were processed

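The deposited table holds 1 intensity per probe set and array, made by the authors on a linear scale with a floor of 100. The sources used here do not give the software, its scaling or the floor's rule. Of 12625 probe sets, 67 were controls; of the others, 10943 had 1 gene symbol in the platform annotation, 545 several and 1070 none. The probes are of human design, so a gorilla mismatch can lower a probe set, differently between lines where it is polymorphic. The array number limits precision.

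Intensities were log2 transformed, quantile normalised over 12 arrays (array medians spanned 0.50 on the log2 scale) and fitted with limma 3.58.1 (R 4.3.3). The fit covered probe sets whose mean log2 intensity exceeded the 40th percentile, without controls and COL11A1. P-values were two-sided, adjusted over all 7540 probe sets. They weigh each group difference against the variation among lines within the groups, in which line, culture and array cannot be told apart. The script was tested on simulated data. Lists used the brightest tested probe set per gene and got no test. They held 716 genes, 580 on the array.

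Genes were named by rule. The first part took COL11A1 and its fibril partners (COL5A1 had no probe set of its own), and the second every called gene. The third took up to 12 genes per direction with the largest difference, no overlap and a brighter mean above 500. The fourth took from each list up to 4 members without overlap, or the largest difference, and the fifth the brightest of each marker list. The members and lists were chosen with earlier results of these data known. List genes outside the rule (among them COL4A1, COL4A2, CNN1, CXCL8, FZD7, SULF1, EMX2, IRX5, MFAP5, HAS2, CD44, RUNX2, PLK1, CDH3) were chosen after their values were seen. Alternatives covered scaling, filter, floor, covariates, cuts, donors, culture, array weights and leaving out each line. Normalisation and filter without the array labelled female 3 and the 50% array was an alternative chosen after seeing the data.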

Additional observations from a re-analysis of the deposited data

Results flagged for a closer look

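Among the 5 COL11A1-high lines, 91 sets of values (named genes and list means) were searched for 1 line far from the other 4 on the log2 scale, and 6 were found. Chance flags about 1 in 20 where values are normally spread and not picked by their size. Many of the named genes, and COL11A1, were picked by their values in these lines, so the rate is nominal. No conclusion is drawn from the number of flags. NPY was 190 in male 2 and at the floor of 100 in the other 4. With those 4 values clipped at the floor, any reading above 100 in male 2 would have been flagged. The rate of about 1 in 20 does not apply to NPY, and no conclusion is drawn from its flag. MMP3 was 1024 in female 2, and the next line stood at 163. Its flag also leans on clipped values, since 2 of the high lines were at the floor. ACAN was 100 in male 1, with the next line at 870, and IGFBP2 was 686 in male 1, with the next at 4774. The mean over the chondrocyte markers was 7.83 in male 1 and 8.27 in the next line, a list that includes ACAN. The mean over the elastic fibre and microfibril list was 9.65 in female 6 and 9.36 in the next line. Male 1 accounts for 3 of the 6. Of the 5 high lines it has the COL11A1 intensity nearest to the cut, 1676.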

How the results depend on the processing

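The count of called probe sets was 1, and 0 on the values as deposited (NPY adjusted p = 0.0504), with sex or donor age as a covariate, with a slope on log2 COL11A1, with cuts at 150 and 2000, with a single cut at 500, among donors over 10 years and with the 50% confluence array for male 2. It was 2 with median scaling (ACTA2 and NPY), and 0 to 2 when 1 line was left out. Without a filter and with a floor of 200 the count stayed 1 but the probe set was one of FLT1 (-0.81, not the FLT1 probe set of the endothelial list) and one of CXCL12 (-0.59), respectively, not NPY. Each of these calls leans on clipped values. The high lines read 100 to 101 for that FLT1 probe set and 100 to 173 for that of CXCL12, all under the raised floor. Probe sets without overlap numbered 347 higher and 237 lower with cuts at 150 and 2000 (the same lines as without male 1), 76 and 53 with a single cut at 500, and 394 and 343 among donors over 10 years; leaving out 1 line gave 243 to 477 and 157 to 350, since fewer lines separate more easily. For the named genes under alternatives, 1251 values kept direction and side of the threshold, 17 lost the call (all NPY), 3 gained one (ACTA2, MMP3, XRCC2) and 36 changed sign. The sign changes concerned COL11A2 (-0.028 with median scaling, -0.233 with donor age, -0.200 with a single cut, -0.225 over 10 years, -0.025 with the 50% array), COL1A2 (0.277 as deposited, 0.166 with median scaling, 0.014 with the 50% array), CD68 (-0.104 with median scaling, -0.032 with the 50% array), KRT8 (-0.070 with median scaling, -0.001 as a slope, -0.060 with the stricter cuts), VIM (0.189 as deposited, 0.078 with median scaling), COL1A1 (-0.028) and COL3A1 (0.134) with the 50% array, COL2A1 (0.007 with donor age, 0.009 with a single cut) and FLT1 (-0.005 with donor age). Leaving out 1 line gave -0.049 to 0.130 for CD68, -0.077 to 0.154 for KRT8, -0.378 to 0.183 for COL3A1, -0.128 to 0.366 for COL1A1, -0.083 to 0.231 for COL11A2, -0.060 to 0.503 for COL5A2 and -0.083 to 0.027 for COL1A2. Signal near the floor and 3 against 5 lines limit what could be detected, and the cause of each move was not tested.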
